A study of Mus musculus with 12 samples.

Results

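Vesicles shed by activated T cells (ATEV) were compared with vesicles shed by non-activated T cells (NTEV) for gene expression after treatment of DC2.4, an immortalised dendritic cell line of the mouse. The comparison uses the 3 libraries labelled ATEV and the 3 labelled NTEV, 6 of the 12 libraries in the series, and covers every gene with enough counts to be tested, 13261 of 42687 gene identifiers. All cells were DC2.4 of genotype WT. ATEV were given at 15 µg/mL and NTEV at 30 µg/mL. The remaining libraries, used here for reference levels, are 3 from cells given phosphate-buffered saline (PBS) and 3 from cells given 15 µg/mL of ATEV pretreated with Baseline-ZERO DNase (DNase-treated ATEV).

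The labels set a vesicle DNA amount of 5 µg/mL beside the vesicle doses, and do not make plain whether it applies to ATEV, NTEV or both. Kind of vesicle and amount of vesicle changed together, so they cannot be told apart. Cells were incubated overnight, collected and plated again, and the procedure was repeated 3 times, either as rounds on 1 set of cells or as separate experiments. The sources do not say whether replicate libraries had separate cultures as their origin, and p-values then measure the spread between these libraries, which may be technical. How the T cells were activated is not given in the sources used here.

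The 6 libraries held 19.4 to 30.4 M gene counts (1 M = 1e6). The root-mean-square log2 distance over the 500 most different genes was 1.33 to 1.77 within ATEV, 1.45 to 1.93 within NTEV and 1.80 to 2.36 between them. On this measure distances within NTEV overlapped with those between the groups and distances within ATEV did not. By chi-square per degree of freedom on the raw counts both overlapped, with 33.8 to 81.5 within ATEV, 42.2 to 128 within NTEV and 28.2 to 121 between them. Of 20 listed dendritic cell lineage markers 12 could be tested, 6 had too few counts and 2, Clec9a and Kit, had 0 counts in all 12 libraries. Sirpa and Irf8 stood at 505 to 776 and 108 to 186 CPM (counts per 1e6 normalised counts) in these 6 libraries. Itgax and Zbtb46 stood at 25.6 to 48.1 and 3.83 to 9.0 CPM, and Flt3 had 6 counts in total. Of 18 listed macrophage markers 16 could be tested. Csf1r and Adgre1 stood at 411 to 610 and 230 to 423 CPM, whereas Mrc1 stood at 0.449 to 0.669 CPM and Cd163 had 2 counts in total. The T cell markers Cd3e, Cd8a, Trbc1 and Trbc2, and the activated T cell markers Ifng, Gzmb, Gzma, Prf1, Il2ra, Cd40lg and Xcl1, had 0 counts in all 12 libraries. The summed CPM of all 19 T cell markers was 65.4, 57.2 and 46.5 with ATEV and 37.3, 56.0 and 48.9 with NTEV, and for the 15 activated T cell markers it was 11.8, 4.68 and 5.25 against 5.21, 6.05 and 6.07. Most of the first sum came from Cd28, at 26.6 to 44.9 CPM, and Lck, at 7.21 to 18.5 CPM in these 6 libraries. Most of the second came from Tnfrsf9, at 3.58 to 10.9 CPM. In bulk RNA such as this, a change in the number of cells of a kind and a change in RNA per cell cannot be told apart.

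Interferons act on most nucleated cells through surface receptors that signal to transcription factors in the nucleus. Interferon-gamma, a product of activated T cells and natural killer cells, acts mainly on gamma-activated sites (GAS) in DNA, whereas type I interferons act mainly through a complex with IRF9 that binds interferon-stimulated response elements (ISRE), a sequence that IRF1 also recognises. In dendritic cells these pathways raise GTPases that attack the vacuoles of pathogens, antiviral effectors, and the machinery that loads peptides onto MHC class I molecules.

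Few genes differed between the vesicles, and most of those that did were higher with ATEV. edgeR's quasi-likelihood test with Benjamini-Hochberg adjustment, the source of all adjusted p-values given here unless another tool is named, called 124 genes at an adjusted p under 0.05. Of these, 116 were higher and 8 lower with ATEV than with NTEV, so 93.5% of the calls were on the ATEV side. With DESeq2 the calls were 265 higher and 108 lower, a share of 71% on the ATEV side. The total ranged from 70, without NTEV replicate 3, to 302, without ATEV replicate 1, when single ATEV or NTEV libraries were left out. As shares of all genes tested, 0.935% were called in either direction, 0.875% higher and 0.0603% lower. The calls were large for the most part, with 97 higher and 4 lower genes differing at least 2-fold. Higher genes had log2 fold changes of 0.71 to 11.52 (median 1.76), lower genes of -2.56 to -0.55 (median -0.96), and the median over all genes tested was -0.01. The upper end was a fitted value for Tgtp2, which had 0 counts with NTEV. On a floor of 3 counts over the NTEV group its lower bound was 8.61. The unadjusted p was under 0.05 for 1775 genes (13.4%). For comparison, 4.74% of genes were called between ATEV and PBS and 2.31% between NTEV and PBS. These comparisons share libraries with the one described here.

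**Figure D1:**
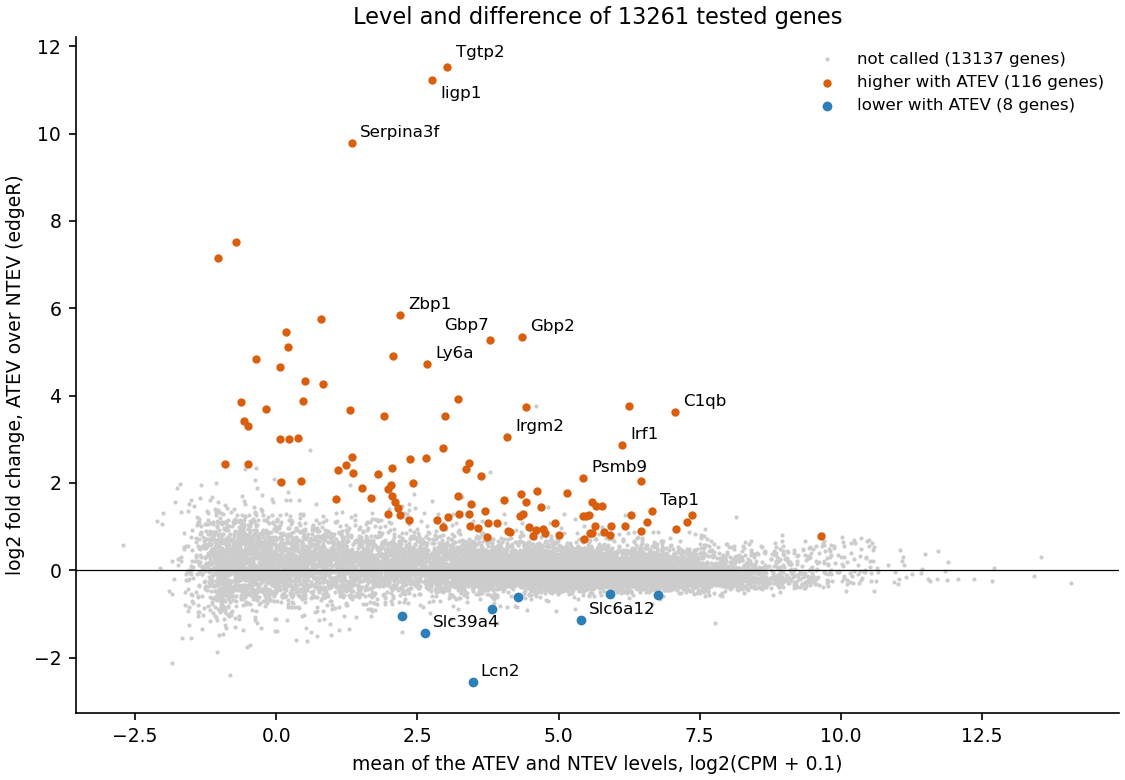
Log2 fold change of ATEV over NTEV (vertical axis) against the mean of the ATEV and NTEV levels, as log2(CPM + 0.1), for the 13261 genes tested. Each point is a gene. The 116 called genes above the zero line are led by Tgtp2, Iigp1 and Serpina3f, which had 0 counts with NTEV, so their heights are fitted values. Below the line lie 8 called genes, with Lcn2 the lowest.

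Interferon-gamma-inducible GTPases were higher with ATEV in each of the 12 members that could be tested, where 0.875% of all genes tested were called higher. This family holds the guanylate-binding proteins (Gbp), large GTPases that coat and break open pathogen-containing vacuoles, and the immunity-related GTPases (Irgm1, Irgm2, Igtp, Iigp1, Tgtp2, Ifi47), smaller proteins that act on the same membranes. The list has 19 members, and the log2 fold changes of the 12 tested had a median of 5.05 and a range of 1.77 to 11.52. The upper end is a fitted value for Tgtp2, which had 0 counts with NTEV, and its lower bound was 8.61. The median was 4.55 with members at 0 counts in NTEV set at their lower bounds. Iigp1, Tgtp2, Gbp5, Gbp6 and Gbp9 passed the filter on low counts through the ATEV libraries alone and so had to differ. The count of 12 and the medians are therefore no more than a description. Gbp2b and Gbp10 had 0 counts in all libraries, and Gbp4, Gbp8, Gbp11, Tgtp1 and Irgc1 had too few to test (12, 9, 3, 30 and 25 counts over the 12 libraries). The 7 members with more than 3 counts over the NTEV libraries (Gbp2, Gbp3, Gbp7, Irgm1, Irgm2, Igtp and Ifi47) ranged from 1.77 to 5.34 with a median of 3.04.

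Gbp7 stood at 33.7, 22.2 and 24.2 CPM in the ATEV libraries and at 0.897, 0.721 and 0.398 CPM in the NTEV libraries, which is a log2 fold change of 5.26 with a standard error (±) of 0.28 (adjusted p = 4.33e-07). Gbp2 stood at 38.5, 32.1 and 48.1 CPM against 1.31, 0.681 and 0.895 CPM, a log2 fold change of 5.34 ± 0.38 (adjusted p = 5.14e-06). For both genes the lowest ATEV library lay far above the highest NTEV library. Gbp3 stood at 42.7, 34.3 and 42.5 CPM with ATEV and at 3.62, 2.52 and 2.68 CPM with NTEV (log2 fold change 3.75 ± 0.23, adjusted p = 2.23e-06). The NTEV levels of Gbp3 and Gbp2 were close to those with PBS, at 4.35, 3.29 and 2.41 CPM for Gbp3 and 1.16, 0.61 and 0.646 CPM for Gbp2. Gbp7 was different in that its NTEV libraries all lay below its PBS libraries (1.76, 2.02 and 1.55 CPM), a log2 fold change of NTEV over PBS of -1.36 (adjusted p = 0.0287). With DNase-treated ATEV the 3 genes lay between NTEV and ATEV, at 3.55 to 4.19 CPM for Gbp7, 8.72 to 11.6 CPM for Gbp3 and 1.47 to 4.04 CPM for Gbp2.

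Among the immunity-related GTPases, Irgm1, a regulator that guards the cell's own membranes, was the one with the smallest difference. It stood at 58.7, 54.7 and 51.7 CPM with ATEV and 14.9, 17.6 and 15.9 CPM with NTEV, a log2 fold change of 1.77 ± 0.14 (adjusted p = 1.65e-05). Its fellow regulator Irgm2 stood at 35.2, 25.5 and 29.8 CPM against 3.42, 3.92 and 3.63 CPM (3.04 ± 0.21, adjusted p = 4.82e-06), and Igtp, also known as Irgm3, at 18.7, 15.8 and 16.5 CPM against 3.9, 2.84 and 3.53 CPM (2.31 ± 0.19, adjusted p = 1.65e-05). No library of one group entered the range of the other for any of these 3 genes. Iigp1 and Tgtp2, effector members of the family, had no counts without ATEV or DNase-treated ATEV. Iigp1 stood at 11, 12.4 and 16.6 CPM with ATEV, 827 counts in all, and had 0 counts in the NTEV and PBS libraries, which made it at least 324-fold higher than with NTEV against a floor of 3 counts over the NTEV group (adjusted p = 3.60e-05). Tgtp2 stood at 13, 13.3 and 22.1 CPM, 997 counts against 0, at least 391-fold higher on the same floor (adjusted p = 3.96e-05). Gbp9 had 49 counts against 0, at least 19.2-fold higher. Gbp5 had 126 counts against 3, which is 49.4 times as many after scaling (95% counting interval 16.5 to 243). For Gbp6 the counts were 82 and 3 and the ratio was 32.1 (10.6 to 159). These bounds and intervals cover counting error only. Iigp1, Tgtp2, Gbp5, Gbp6 and Gbp9 could be tested only because they were high with ATEV, so their calls and adjusted p-values are a description. Gbp, Iigp1 and Tgtp2 have close copies in the mouse genome, and how reads were divided among the copies is uncertain.

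**Figure D2:**
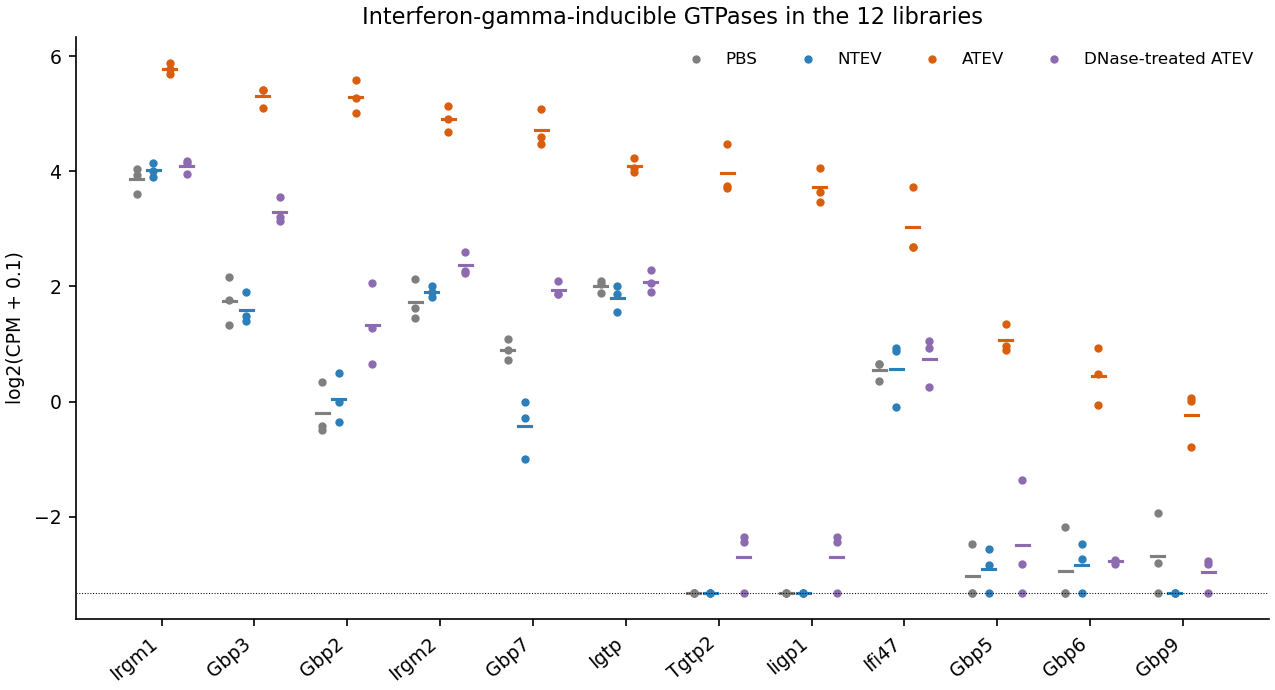
Levels of the 12 tested GTPases as log2(CPM + 0.1) (vertical axis) in each of the 12 libraries (points) with the mean of each group (bars), and the dotted line marking 0 counts. In each of the 12 genes the 3 ATEV points lie above all NTEV points, where 8.61% of all genes tested had such a gap upward. Gbp5, Gbp6, Gbp9, Iigp1 and Tgtp2 were tested through their ATEV libraries alone and so had to differ. Tgtp2 and Iigp1 sit on the dotted line in all PBS and NTEV libraries.

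Because these genes moved together, the promoters of those with the clearest differences were read for the motifs named above. The sequences come from RefSeq (build GRCm38.p6), and each stretch is the 110 bases before the annotated start of the gene, written 5′ to 3′ on the strand of the gene. Capitals mark matches to TTCNNNGAA (GAS) or to GAAA, any 2 bases and GAAA (ISRE) on either strand, so an ISRE on the opposite strand reads TTTC, any 2 bases and TTTC. Where capitals run on, neighbouring matches overlap. Irf1, the transcription factor, and Isg15, a ubiquitin-like antiviral modifier, are set beside the GTPases to show a promoter with a GAS match alone and one with ISRE matches alone in this stretch.
Gbp2 (chr3:142620553-142620662, plus strand): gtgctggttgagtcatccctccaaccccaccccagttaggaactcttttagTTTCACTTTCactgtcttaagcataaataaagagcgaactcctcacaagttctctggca
Gbp3 (chr3:142559934-142560043, plus strand): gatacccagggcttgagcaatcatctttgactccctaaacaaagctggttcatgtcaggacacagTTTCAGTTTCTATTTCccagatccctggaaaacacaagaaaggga
Gbp5 (chr3:142496824-142496933, plus strand): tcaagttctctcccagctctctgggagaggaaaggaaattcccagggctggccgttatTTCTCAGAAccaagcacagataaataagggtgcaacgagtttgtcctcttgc
Gbp7 (chr3:142530226-142530335, plus strand): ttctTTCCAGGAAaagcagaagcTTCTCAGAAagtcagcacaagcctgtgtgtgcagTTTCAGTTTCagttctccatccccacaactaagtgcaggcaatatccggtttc
Irgm1 (chr11:48871421-48871530, minus strand): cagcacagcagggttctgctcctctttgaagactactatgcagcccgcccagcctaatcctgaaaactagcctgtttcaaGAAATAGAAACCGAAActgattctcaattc
Irgm2 (chr11:58214867-58214976, plus strand): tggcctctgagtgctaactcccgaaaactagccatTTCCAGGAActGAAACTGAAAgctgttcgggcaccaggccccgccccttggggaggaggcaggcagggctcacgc
Igtp (chr11:58199446-58199555, plus strand): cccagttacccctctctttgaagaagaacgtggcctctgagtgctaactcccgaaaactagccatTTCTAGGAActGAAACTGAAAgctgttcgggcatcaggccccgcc
Tgtp2 (chr11:49064213-49064322, minus strand): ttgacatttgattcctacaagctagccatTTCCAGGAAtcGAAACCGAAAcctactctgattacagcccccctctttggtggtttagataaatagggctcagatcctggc
Irf1 (chr11:53769904-53770013, plus strand): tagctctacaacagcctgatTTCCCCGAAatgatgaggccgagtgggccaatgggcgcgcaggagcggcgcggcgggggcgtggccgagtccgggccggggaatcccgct
Isg15 (chr4:156200819-156200928, minus strand): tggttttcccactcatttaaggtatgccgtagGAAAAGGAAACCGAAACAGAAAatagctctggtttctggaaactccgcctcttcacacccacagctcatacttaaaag

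Irgm2, Igtp and Tgtp2 carried the same arrangement, a GAS match followed closely by an ISRE match, and Irgm2 and Igtp shared an identical run of 38 bases that ends within the GAS match. Gbp7 held 2 GAS matches before an ISRE match, and Irgm1 held 2 overlapping ISRE matches within the 30 bases before its start. Over the full window of 250 bases before to 50 after the start, 8 of the 9 higher GTPases with a RefSeq promoter held an ISRE match and 5 a GAS match. Of the 116 higher genes 82 had a promoter in the table, and among those 33 (40.2%) held an ISRE match and 15 (18.3%) a GAS match. The same motifs were found in 3.86% and 8.13% of the 9358 tested genes with a promoter, and in 3.44% and 8.30% of all 32851 promoters of this length. In 23 of the 33 genes an ISRE match began within 100 bases before the start. Promoters with both motifs numbered 9 among the higher genes, with no overlap between the matches, and 149 among all promoters, with an overlap in 24. None of the 5 lower genes with a promoter held either motif. A match describes letters in the window and is not evidence of binding.

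**Figure D3:**
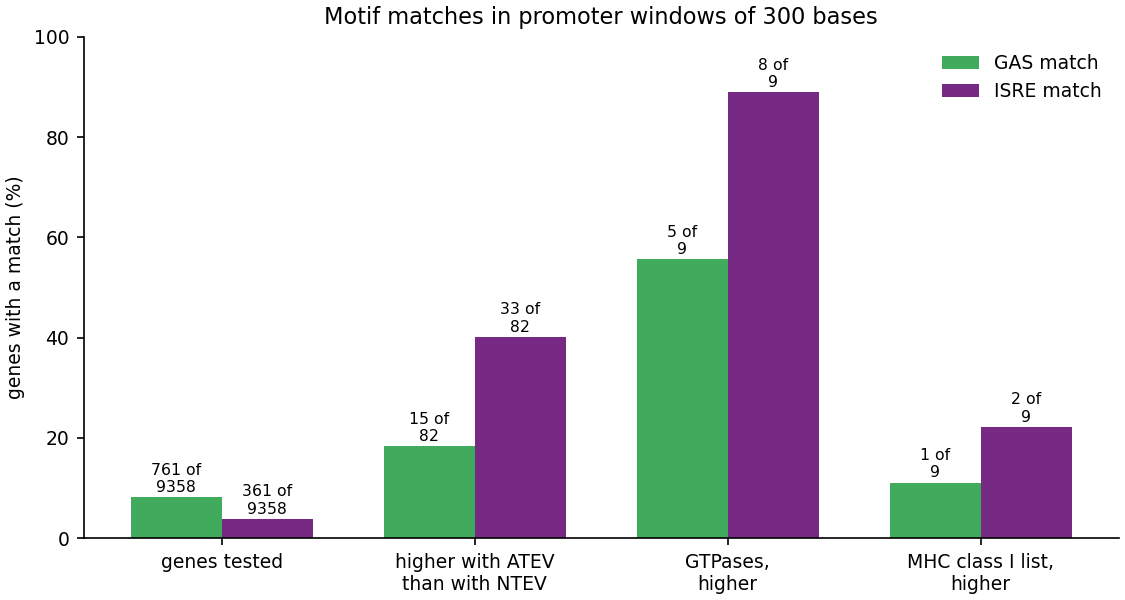
Share of genes (percent, vertical axis from 0) whose 300-base promoter window held a GAS or an ISRE match, among genes tested, genes higher with ATEV, higher GTPases and higher members of the MHC class I list, with the counts above each bar. ISRE matches rise from 361 of 9358 tested genes to 33 of 82 higher genes and 8 of 9 GTPases, and 2 of 9 MHC class I genes held one.

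Antiviral interferon-stimulated effectors formed the longest list of higher genes. Of 47 tested members (53 listed), 16 were higher and none lower, with a median of 0.79. Over all genes tested 0.875% were called higher. In 33 of the 47 all ATEV libraries lay above all NTEV libraries and in 0 below, where 8.61% of all genes tested had such a gap upward, 7.16% downward and 15.8% in either direction. Of the 16 calls, 10 survived the omission of any single ATEV or NTEV library. Zbp1, which senses left-handed nucleic acids and can start cell death, stood at 7.36, 7.55 and 11.6 CPM with ATEV and at 0.173, 0.160 and 0.0994 CPM with NTEV, a log2 fold change of 5.85 ± 0.40 (adjusted p = 4.61e-06). Lgals3bp, a secreted galectin-binding glycoprotein, stood at 81.9, 85.1 and 74.0 CPM against 26.2, 31.0 and 30.4 CPM (1.46 ± 0.11, adjusted p = 1.33e-05). The NTEV libraries of Lgals3bp were themselves above the PBS libraries, which lay at 17.4, 17.1 and 18.5 CPM. Oasl2, an oligoadenylate synthetase-like protein, stood at 18.2, 12.9 and 11.9 CPM against 1.41, 1.16 and 1.14 CPM (3.52 ± 0.35, adjusted p = 1.21e-04). Parp14, an ADP-ribosyltransferase, stood at 43.7, 39.7 and 31.1 CPM against 10.4, 12.7 and 9.30 CPM, a log2 fold change of 1.82 ± 0.18. Mx1, a GTPase that blocks viral replication, stood at 2.37, 3.34 and 3.82 CPM against 0.242, 0.0801 and 0.149 CPM (4.26 ± 0.48, adjusted p = 4.15e-04). Mx1 passed the filter on low counts through the ATEV libraries alone, so it could be tested only because it was high there. Its call, and the counts of 16 and 33 that include it, are no more than a description.

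Isg15, the ubiquitin-like modifier, stood at 4.30, 4.35 and 5.51 CPM with ATEV and 1.69, 1.56 and 1.19 CPM with NTEV (log2 fold change 1.66 ± 0.29, adjusted p = 0.0129), a call lost without ATEV replicate 3 or NTEV replicate 3 (adjusted p up to 0.107). Ifit1, which binds viral RNA, was not called, with 1.25, 0.717 and 0.689 CPM against 0.483, 0.601 and 0.447 CPM, a log2 fold change of 0.79 ± 0.51 and a 95% interval of -0.31 to 1.90. Its ATEV libraries all lay above its NTEV libraries, and the PBS libraries, at 0.999, 0.469 and 0.388 CPM, overlapped both. Among other interferon-inducible genes with the largest differences, the serine protease inhibitor Serpina3f had 302 counts with ATEV and 0 with NTEV, at least 118-fold higher (adjusted p = 3.95e-04), and its close copy Serpina3g stood at 4.86, 6.59 and 12.2 CPM against 0.311, 0.120 and 0.348 CPM (4.90 ± 0.51). Ly6a, a surface antigen also called Sca-1, stood at 4.74, 12.7 and 18.8 CPM against 0.690, 0.240 and 0.398 CPM (4.72 ± 0.57, adjusted p = 6.66e-04), with ATEV replicate 1 well below the other ATEV libraries. Rtp4, a chaperone with antiviral activity, was also higher (4.65 ± 0.69, adjusted p = 0.00355), from 0.0345 to 0.0994 CPM with NTEV to 1.39 to 2.63 CPM with ATEV. Serpina3f, Ly6a and Rtp4 passed the filter on low counts through the ATEV libraries alone, so their calls are a description.

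**Figure D4:**
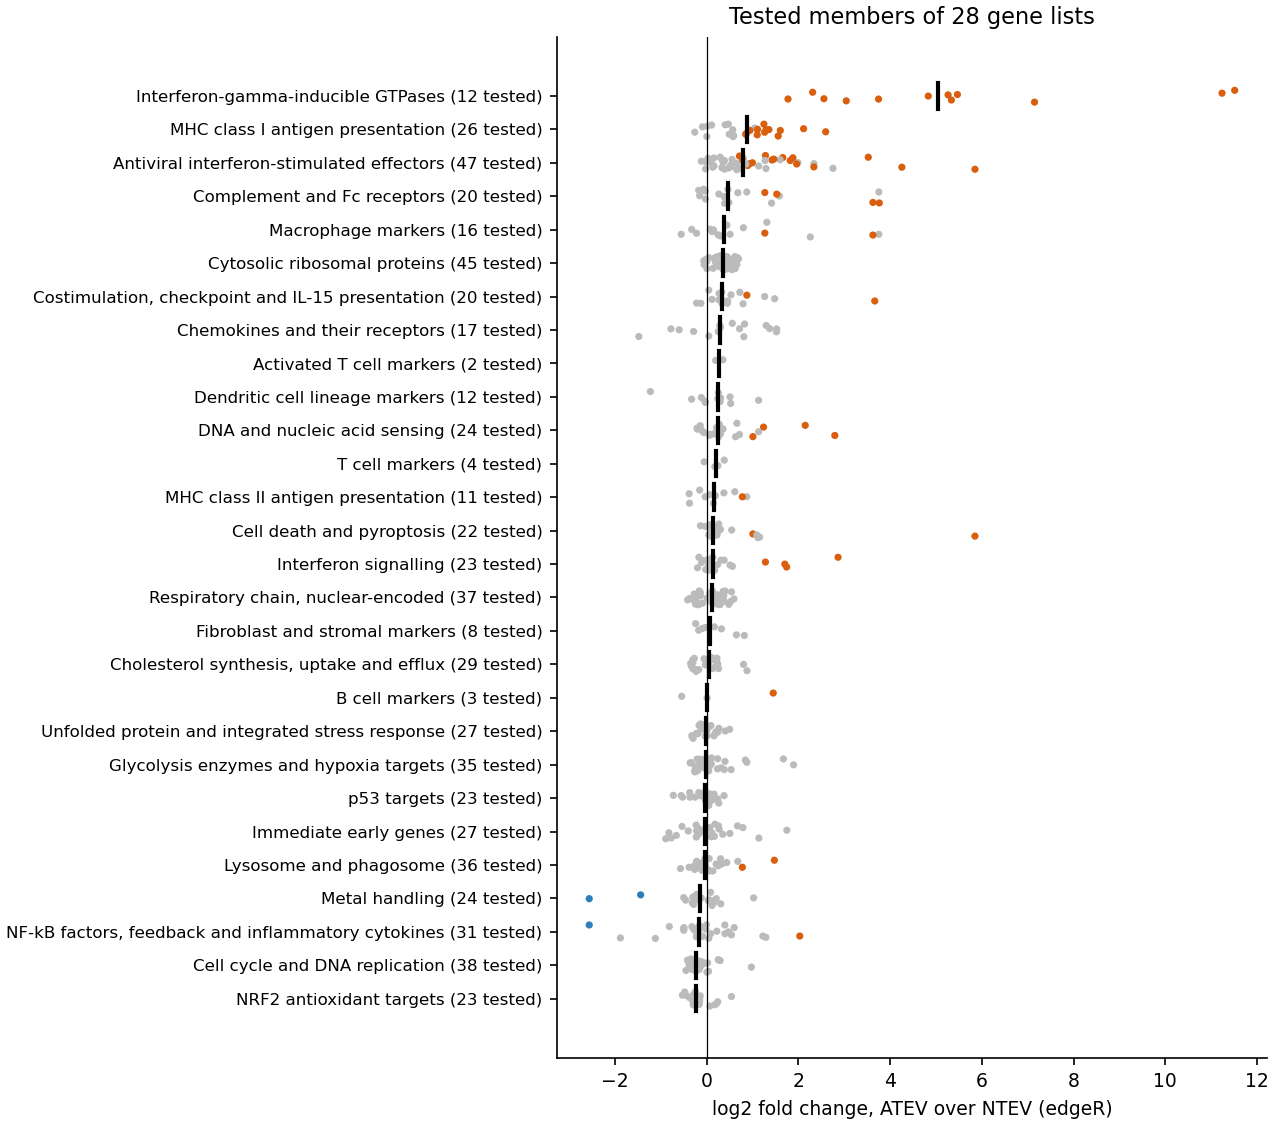
Log2 fold change of ATEV over NTEV (horizontal axis) for the tested members of the 28 gene lists, 1 point per gene, orange for higher, blue for lower and grey for genes not called, with a black bar at each list's median. The medians are 5.05 for the 12 tested GTPases, some of which were tested through their ATEV counts alone, 0.88 for the MHC class I list and 0.79 for the antiviral list.

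Of 23 tested members of the interferon signalling list (25 listed) 4 were higher with ATEV, beside 0.875% of all genes tested. Irf1, Irf7 and Irf9 were among the 4, and the list median was 0.14. Irf1 stood at 120, 127 and 122 CPM with ATEV and at 9.59, 24.5 and 16.7 CPM with NTEV (2.86 ± 0.37, adjusted p = 0.00123). The ATEV libraries agreed closely for Irf1, and the NTEV libraries overlapped with the PBS libraries (11.1, 12.2 and 28.5 CPM). Irf7, the factor that amplifies type I interferon production, stood at 19.2, 12.0 and 11.4 CPM against 3.55, 5.69 and 3.83 CPM (1.70 ± 0.25, adjusted p = 0.00355). Irf9, the DNA-binding part of the ISRE complex, stood at 33.3, 27.4 and 26.3 CPM against 8.63, 16.1 and 11.1 CPM (1.28 ± 0.23, adjusted p = 0.0124), and lost its call without NTEV replicate 3 (adjusted p = 0.0815). Neither Ifngr1 (0.15 ± 0.14, 95% interval -0.16 to 0.47) nor Ifnar1 (0.05 ± 0.14, -0.24 to 0.35), which encode receptor chains for interferon-gamma and type I interferon, was called. Socs1, the feedback inhibitor of the pathway, was not called either (0.38 ± 0.23, -0.11 to 0.87). Ifnb1 had 0 counts in all 12 libraries.

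Of 26 tested members of the MHC class I presentation list (27 listed), 14 were higher with ATEV and none lower. The median was 0.88. In 21 of the 26 all ATEV libraries lay above all NTEV libraries, and in 1 all lay below. Over all genes tested 8.61% had such a gap upward, 7.16% downward, and 0.875% were called higher. Of the 14 calls 6 were kept in all 6 fits that left 1 library out, and the list had 7 calls without NTEV replicate 3 and 8 without ATEV replicate 3. Psmb9, an immunoproteasome subunit, stood at 58.4, 67.5 and 84.1 CPM against 13.8, 16.2 and 18.6 CPM (2.11 ± 0.19, adjusted p = 3.96e-05). Of the other immunoproteasome subunits, Psmb10 was higher by 1.10 ± 0.20 (adjusted p = 0.0129), a call lost without ATEV replicate 3 or NTEV replicate 2 or 3 (adjusted p up to 0.0890). Psmb8 was higher by 0.94 ± 0.18 (adjusted p = 0.0237), and its call was lost without ATEV replicate 2 or 3 or NTEV replicate 2 or 3 (adjusted p up to 0.118). Psme1, a subunit of the proteasome activator PA28, stood at 186, 200 and 246 CPM against 110, 81.6 and 102 CPM (1.11 ± 0.16, adjusted p = 0.00290).

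Among the genes of peptide transport and loading, Tap1, Tap2 and Tapbpl were called, Tap2 not without NTEV replicate 3 (adjusted p = 0.0621), whereas Tapbp (0.57, adjusted p = 0.0542), Erap1 (0.59, 0.142), Calr (-0.09, 0.945), Canx (-0.26, 0.546) and Pdia3 (0.01, 0.991) were not. These genes were named with their values in view. Tap1, a subunit of the transporter that carries peptides into the endoplasmic reticulum, stood at 170, 141 and 121 CPM with ATEV and 39.0, 73.4 and 56.3 CPM with NTEV (1.36 ± 0.21, adjusted p = 0.00499). NTEV libraries of Tap1 all lay above the PBS libraries, which stood at 29.6, 32.8 and 36 CPM. Tapbpl, a peptide editor, stood at 25.0, 20.4 and 28.5 CPM against 10.2, 6.69 and 7.36 CPM (1.60 ± 0.19, adjusted p = 5.10e-04). Nlrc5, the transactivator of class I genes, stood at 101, 125 and 117 CPM against 58.0, 66.5 and 59.0 CPM (0.91 ± 0.13, adjusted p = 0.00224). Of the heavy chains on the list, the called ones were the non-classical H2-Q4, H2-Q7, H2-T10, H2-T22 and H2-T24, from 0.85 for H2-T22 to 2.59 for H2-Q7; these were named after their values were seen, and near-identical stretches make their individual values uncertain. The call of H2-Q7 was kept in all 6 fits with a library left out. H2-T22 lost its call without ATEV replicate 2 or 3 (adjusted p up to 0.0684), and H2-T24 without ATEV replicate 3 or NTEV replicate 1 or 3 (up to 0.0761). H2-Q4 lost it without ATEV replicate 2 or 3 or NTEV replicate 1 or 3 (up to 0.134), and H2-T10 without any library but ATEV replicate 1 (up to 0.205). The classical heavy chain H2-K1 stood at 817, 738 and 703 CPM against 515, 576 and 538 CPM, without overlap, but was not called (0.47 ± 0.11, 95% interval 0.23 to 0.72, adjusted p = 0.0904). H2-D1 (0.40 ± 0.13, 0.12 to 0.68) and the light chain B2m (0.49 ± 0.15, 0.17 to 0.81) were not called either, and DESeq2 called H2-K1 and B2m.

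**Figure D5:**
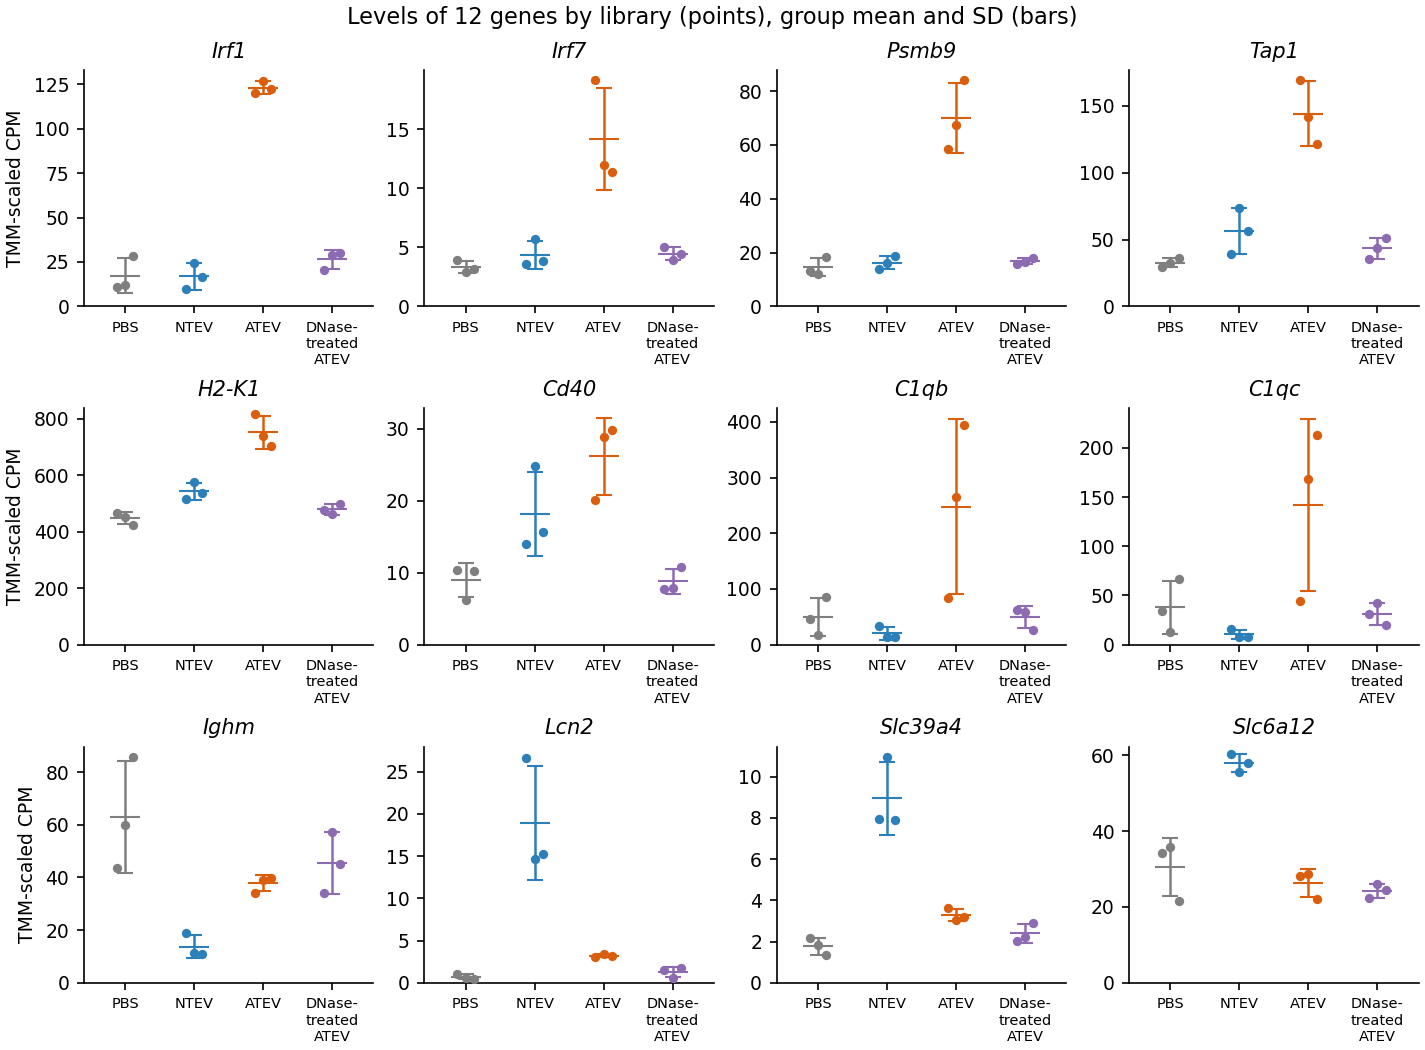
TMM-scaled CPM (vertical axes, from 0) of 12 genes in the PBS, NTEV, ATEV and DNase-treated ATEV libraries (points), with the mean and SD of each group of 3. Irf1, Irf7 and Psmb9 stand highest in the ATEV libraries, Lcn2, Slc39a4 and Slc6a12 are highest in the NTEV libraries, and Ighm is lowest there.

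The lists of MHC class II presentation and costimulation had fewer calls in number than the class I list. Over all genes tested 0.935% were called. Of 11 tested class II members (19 listed) only Ctss was called. In 4 of the 11 all ATEV libraries lay above all NTEV libraries and in 1 below, where 8.61% of all genes tested had such a gap upward and 7.16% downward. Ctss, a lysosomal protease that processes the invariant chain, stood at 898, 996 and 1148 CPM with ATEV and 573, 616 and 586 CPM with NTEV (0.78 ± 0.13, adjusted p = 0.00978), a call lost without NTEV replicate 3 (adjusted p = 0.0789). The invariant chain Cd74 was not called, at 178, 110 and 108 CPM against 69.4, 64.5 and 82.7 CPM (0.87 ± 0.22, 95% interval 0.39 to 1.35, adjusted p = 0.109), though it was called by DESeq2 (adjusted p = 0.0146) and by edgeR with no filter on low counts (adjusted p = 0.00347). Counts of the class II transactivator Ciita were too low to test, with 22 in the ATEV libraries and 0 in the NTEV libraries, as were those of H2-Ab1, a class II chain, with 28 and 2.

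Of 20 tested members (26 listed) of the costimulation, checkpoint and interleukin-15 list, Slamf8 and Il15ra were higher and the median was 0.34. In 8 of the 20 all ATEV libraries lay above all NTEV libraries and in 0 below, where 8.61% of all genes tested had such a gap upward and 7.16% downward. Slamf8, a receptor of the SLAM family on myeloid cells, stood at 3.19, 3.63 and 6.47 CPM against 0.587, 0.160 and 0.249 CPM (3.66 ± 0.54, adjusted p = 0.00355). Without its ATEV libraries Slamf8 would not have passed the filter on low counts, so its call, and the counts that include it, are a description. Il15ra, which presents interleukin-15 to T cells, stood at 20.1, 19.8 and 27.9 CPM against 11.7, 12.1 and 13.1 CPM (0.88 ± 0.18, adjusted p = 0.0301), a call lost without ATEV replicate 3 or any 1 NTEV library (adjusted p up to 0.153). Cd40, the receptor through which helper T cells license dendritic cells, overlapped between the groups at 20.1, 28.8 and 29.8 CPM against 13.9, 24.9 and 15.7 CPM (0.53 ± 0.26, 95% interval -0.02 to 1.08, adjusted p = 0.393). Both vesicle groups lay above the PBS libraries for Cd40 (10.3, 6.24 and 10.3 CPM). Cd86, a costimulatory ligand, stood at 56.9, 52.5 and 79.5 CPM against 46.9, 36.3 and 31.2 CPM without overlap and was not called (0.72 ± 0.18, 0.34 to 1.10, adjusted p = 0.0946). It was called by DESeq2 (adjusted p = 0.0139), by edgeR with no filter on low counts (adjusted p = 0.014) and by edgeR without NTEV replicate 1 (adjusted p = 0.0334). Its relative Cd80 (0.11 ± 0.21, -0.35 to 0.58) and the checkpoint ligand Cd274 (0.46 ± 0.31, -0.20 to 1.12) had intervals that include 0.

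Of 24 tested genes of DNA and nucleic acid sensing (31 listed) 4 were higher with ATEV and none lower, with a median of 0.24. Of the 4, 3 belong to the interferon-inducible p200 family. Over all genes tested 0.875% were called higher. Ifi204, a DNA-binding p200 protein, stood at 10.1, 13.7 and 16.3 CPM with ATEV and 2.66, 1.28 and 1.79 CPM with NTEV (2.79 ± 0.36, adjusted p = 0.00118). Its relatives Ifi203 (2.15 ± 0.24, adjusted p = 3.25e-04) and Mndal (1.24 ± 0.16, adjusted p = 0.00133) were higher in all 3 ATEV libraries as well. The p200 genes lie in a cluster of close copies, so their individual values are uncertain. Casp1, the inflammasome protease, stood at 50.8, 63.0 and 85.5 CPM against 35.1, 31.1 and 32.9 CPM (1.01 ± 0.18, adjusted p = 0.0141), a call lost without ATEV replicate 3 or NTEV replicate 2 or 3 (adjusted p up to 0.0915). The sensor Cgas (0.30 ± 0.16, 95% interval -0.05 to 0.65) and its adaptor Tmem173, also called STING (0.21 ± 0.13, -0.07 to 0.49), were not called. Trex1 had 0 counts in all 12 libraries.

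Inflammatory genes outside the interferon group were called in both directions, beside a share of 0.935% called over all genes tested. Of 31 tested NF-kB factors, feedback genes and cytokines (40 listed), Il27 was higher and Lcn2 lower, and the median was -0.16. Il27, a subunit of the cytokine interleukin-27, stood at 1.51, 1.39 and 1.70 CPM against 0.276, 0.360 and 0.497 CPM (2.03 ± 0.34, adjusted p = 0.00763). Without its ATEV libraries Il27 would not have passed the filter on low counts, so its call is a description. Tnf was not called (0.40 ± 0.28, 95% interval -0.21 to 1.00). Among 17 tested chemokines and receptors (29 listed) edgeR called 0, with 5 at an unadjusted p under 0.05, while DESeq2 called 1 and limma-voom 0. Ccl5, a T cell attractant, stood at 2.02, 2.05 and 4.13 CPM with ATEV and 6.97, 4.84 and 2.14 CPM with NTEV, overlapping and above PBS (0.879, 0.423 and 0.560 CPM) in both (-0.78 ± 0.42, -1.68 to 0.12). The interval of Cxcl10, an interferon-inducible chemokine, was wide (0.26 ± 0.49, -0.80 to 1.32). Cxcl9 had 8 counts with ATEV and 1 with NTEV, Il6 had 2 and 0, Ccr7 had 0 and 1, and Il12b had 0 counts in all libraries.

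Of 20 tested complement and Fc receptor genes (24 listed) 4 were higher with ATEV and none lower, beside 0.875% of all genes tested called higher. The list median was 0.47, and the ATEV libraries were uneven for the C1q chains among the 4. C1qb, a chain of the complement starter C1q that macrophages make, stood at 83.6, 265 and 395 CPM with ATEV and 33.9, 12.9 and 13.2 CPM with NTEV (3.62 ± 0.65, adjusted p = 0.0141). C1qc stood at 44.4, 168 and 213 CPM against 15.7, 7.73 and 7.61 CPM (3.76 ± 0.64, adjusted p = 0.00931). For both chains ATEV replicate 1 was well below the other ATEV libraries and within the span of the PBS libraries, which reached 85.0 CPM for C1qb and 66.7 CPM for C1qc. The call of C1qc was lost without NTEV replicate 3 (adjusted p = 0.0770), and that of C1qb without ATEV replicate 3, NTEV replicate 2 or NTEV replicate 3 (adjusted p up to 0.108). Fcgr1, the high-affinity receptor for immunoglobulin G, stood at 97.3, 94.5 and 137 CPM against 56.5, 40.1 and 39.9 CPM (1.27 ± 0.19, adjusted p = 0.00405), and Fcgr4 at 11.3, 17.3 and 19.3 CPM against 4.49, 6.41 and 5.77 CPM (1.53 ± 0.25, adjusted p = 0.00710).

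C1qb and Fcgr1 are also macrophage markers, a list in which 2 of 16 tested members were higher (Fcgr1 and C1qb), with a median of 0.37. Over all genes tested 0.875% were called higher. The third C1q chain, C1qa, is on this list and was not called, at 12.3, 42.5 and 81.1 CPM with ATEV and 7.66, 1.08 and 0.994 CPM with NTEV. The summed CPM of the 18 markers was 5232, 7187 and 8905 in the ATEV libraries and 5620, 5772 and 6042 in the NTEV libraries, and overlapped between the groups. Within the ATEV libraries it was lowest in replicate 1 and highest in replicate 3, as C1qb and C1qc were, but over the 6 libraries it was lowest in ATEV replicate 1 whereas both chains were lowest in NTEV libraries. Lyz2, the lysozyme of myeloid cells, made up much of the sum, with 2468, 3717 and 5413 CPM against 2529, 2861 and 3170 CPM, and was not called (0.44 ± 0.23, adjusted p = 0.422). Timd4 was the marker at 0 counts in all 12 libraries. The part of macrophage-like cells in the C1q result was not tested. Ctsh, another lysosomal protease, was also lowest in replicate 1 and highest in replicate 3 within the ATEV libraries, at 43.5, 74.0 and 104 CPM against 23.5, 29.8 and 26.6 CPM (1.47 ± 0.29, adjusted p = 0.0238), and its call was lost without ATEV replicate 2 or 3 or NTEV replicate 1 or 3 (adjusted p up to 0.138). It was called along with Ctss among 36 lysosome and phagosome genes, whose median was -0.03.

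The 8 genes lower with ATEV were led by a secreted iron-withholding protein and a pair of membrane transporters. Lcn2, a lipocalin that withholds iron from bacteria, stood at 3.06, 3.39 and 3.13 CPM with ATEV and 26.6, 14.7 and 15.3 CPM with NTEV, a log2 fold change of -2.56 ± 0.35 (adjusted p = 0.00204). PBS libraries of Lcn2 held 1.04, 0.563 and 0.474 CPM, so that both vesicle groups were above PBS, by 4.75 on the log2 scale with NTEV (adjusted p = 3.14e-04) and by 2.18 with ATEV (adjusted p = 0.00962). Slc39a4, a zinc importer also called ZIP4, stood at 3.62, 3.06 and 3.18 CPM against 7.94, 11 and 7.91 CPM (-1.44 ± 0.23, adjusted p = 0.00697), with PBS at 2.16, 1.83 and 1.34 CPM. Slc6a12, a betaine and GABA transporter, stood at 28.1, 28.7 and 21.9 CPM against 60.3, 55.6 and 57.9 CPM (-1.14 ± 0.17, adjusted p = 0.00464), and its ATEV libraries lay in the range of PBS (34.1, 35.7 and 21.7 CPM). These 3 calls survived the omission of any single library. The other 5 were smaller and each was lost without ATEV replicate 3, NTEV replicate 2 or NTEV replicate 3, 4 of them also without ATEV replicate 2 and 3 also without NTEV replicate 1 (adjusted p up to 0.232). They were Rtkn2 (-1.04, adjusted p = 0.0337), the exchange factor Rapgef5 (-0.88, 0.0219), Abhd8 (-0.61, 0.0496), the ubiquitin ligase Dtx4 (-0.56, 0.0238) and the ciliary transport gene Ttc21b (-0.55, 0.0386). Lcn2 and Slc39a4 were the 2 called members among 24 tested genes of metal handling, whose median was -0.16. Over all genes tested 0.0603% were called lower and 0.935% in either direction.

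Ighm, the immunoglobulin mu heavy chain, was higher with ATEV than with NTEV. It stood at 34.3, 39.2 and 39.9 CPM with ATEV, 18.9, 11.4 and 11 CPM with NTEV and 43.6, 59.8 and 85.9 CPM with PBS. ATEV exceeded NTEV by 1.45 ± 0.27 on the log2 scale (adjusted p = 0.0173, a call lost without ATEV replicate 2 or 3 or NTEV replicate 2 or 3, adjusted p up to 0.108), and NTEV lay below PBS by a log2 fold change of -2.19 (adjusted p = 0.00296). The log2 fold change of ATEV over PBS was -0.74 and was not called (adjusted p = 0.105). Ighm was the 1 called gene among 14 B cell markers, where 0.935% of all genes tested were called. Of the 14 markers 3 could be tested, 6 had too few counts and 5, Ms4a1, Cr2, Fcer2a and Igkc among them, had 0 counts in all 12 libraries. The summed CPM of the list was 191, 183 and 142 with ATEV and 130, 177 and 138 with NTEV, most of it from Blnk, a signalling adaptor, at 99.8 to 162 CPM in these 6 libraries. The part of B-lineage cells in the Ighm result was not tested.

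Housekeeping programmes gave no calls with edgeR. Over all 13261 genes tested edgeR called 0.935%, 13.4% had an unadjusted p under 0.05, and DESeq2 called 373. At such a share, 0 calls in lists of this size says little about these programmes. edgeR called 0 of 45 ribosomal protein genes, although 26 had an unadjusted p under 0.05, DESeq2 called 5 and limma-voom 0. Their median was 0.35, and in 34 of the 45 all ATEV libraries lay above all NTEV libraries, against 8.61% of all genes tested. The median stayed positive whichever ATEV or NTEV library was left out, from 0.20 without ATEV replicate 3 to 0.47 without ATEV replicate 1. Summed over the 45 genes, the ATEV libraries held 49095, 51620 and 64742 CPM, the NTEV libraries 42347, 45559 and 45232 CPM and the PBS libraries 44319, 44396 and 49854 CPM, so ATEV replicate 3 was the highest and ATEV replicate 1 lay below the highest PBS library. edgeR also called 0 of 38 cell cycle and DNA replication genes (median -0.23, 9 at an unadjusted p under 0.05, DESeq2 0), 0 of 37 nuclear-encoded respiratory chain genes (median 0.12, 8 unadjusted, DESeq2 2), 0 of 35 glycolysis and hypoxia genes (median -0.02, 5 unadjusted, DESeq2 1) and 0 of 23 NRF2 antioxidant targets (median -0.23, 3 unadjusted, DESeq2 1). The stress lists gave 0 calls as well, with 0 of 23 p53 targets (median -0.03, 0 unadjusted, DESeq2 0) and 0 of 27 unfolded protein and integrated stress response genes (median -0.01, 1 unadjusted, DESeq2 1). For 29 cholesterol genes (median 0.04, 3 unadjusted, DESeq2 0) and 27 immediate early genes (median -0.03, 5 unadjusted, DESeq2 1) the count was also 0, and limma-voom called 0 in each of these lists. Of the remaining lists, cell death and pyroptosis had 2 of 22 tested members higher, Zbp1 and Casp1, with a median of 0.15. Dendritic cell lineage markers had 0 of 12 called by edgeR (median 0.25, 4 unadjusted, DESeq2 2, limma-voom 0), and fibroblast markers 0 of 8 (median 0.07, 0 unadjusted, DESeq2 0, limma-voom 0). T cell markers had 0 of 4 and activated T cell markers 0 of 2 called by edgeR, with 0 unadjusted and 0 by DESeq2 or limma-voom.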

How the data were processed

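Counts were deposited by the authors as whole numbers per gene and library, with no normalization visible in the values. Build mm9 and the tools Cufflinks 2.1.1, TopHat, TopHat2 2.0.11 and bcl2fastq 2.19 are listed, without roles, in the submitters' processing notes. Read counter and strand setting are not given in the sources used here. Overlapping or antisense genes therefore cannot be told apart. Symbols of GENCODE M21 matched 42250 of 42687 identifiers. Groups came from the labels, replicate numbers from the titles.

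Genes were filtered with filterByExpr (minimum count 10, minimum total 15) and libraries scaled by TMM. All 12 libraries entered a quasi-likelihood model with a mean for each group, in R 4.3.3 with edgeR 4.0.16. Two-sided p-values were adjusted by Benjamini-Hochberg over 13261 genes and called under 0.05. Standard errors and 95% intervals derive from the F statistic. limma 3.58.1 (voom) and DESeq2 1.42.0 were alternatives, beside other scalings and filters, a replicate block, and fits without each library. The scripts were checked on simulated counts.

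Named genes were the 12 largest rises and falls (called, not overlapping, and reaching 1 CPM in the higher group), the 12 smallest adjusted p, up to 4 called members per list, and a fixed panel; predicted genes and clone names were left out of the first 2 parts. Members, lists and panel were chosen with earlier results of these data known. Promoter motifs were matched by symbol in RefSeq sequences. A floor is 3 counts over a group. Some genes that meet the naming rule are not reported here.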

Additional observations from a re-analysis of the deposited data

How the results depend on the processing

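As reported, 124 genes were called between ATEV and NTEV, 116 higher and 8 lower. With only the 6 ATEV and NTEV libraries it was 82 (79 higher, 3 lower), without a filter on low counts 242 (220 and 22), and with DESeq2 373 (265 and 108). Leaving out 1 library at a time gave 70 to 302 calls, 66 to 280 higher and 3 to 22 lower; the highest count came without ATEV replicate 1 (302), and the lowest without NTEV replicate 3 (70) or ATEV replicate 3 (82). The cause was not tested. Scaling by RLE (125) or upper quartile (127), a stricter filter (119) and limma-voom (121) stayed within 1.5 times, and no scaling moved the median of all genes by 0.1. Of the 124 calls, 65 were kept in all 6 fits with a library left out. GTPase calls numbered 10 to 13 under the alternatives run, a count that the low-count members fix in part. MHC class I calls went from 14 to 8 with only the 6 libraries, and to 7 to 15 without single libraries. Calls on other lists went from 36 to 65 without a filter, 75 with DESeq2, and 22 to 62 without single libraries.

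Same-numbered ATEV and NTEV libraries did not deviate together (correlations -0.32, 0.06 and 0.08). With different numbers the correlations ran from -0.47 (ATEV replicate 3, NTEV replicate 2) to 0.43 (ATEV replicate 3, NTEV replicate 1). Deviations from means of 3 libraries cannot decide whether libraries were paired, in this order or another. A replicate block gave 135 calls, 125 higher and 10 lower, 115 of them shared with the fit without the block. Among genes not called the sign turned for Cd80 without NTEV replicate 1 (range over single libraries left out -0.12 to 0.39), Cxcl10 without ATEV replicate 3 (-0.37 to 0.59) and Ifnar1 without ATEV replicate 2 (-0.0076) or NTEV replicate 1 (-0.041 to 0.20). Depth limited genes with few counts, such as Ciita, H2-Ab1 and Cxcl9, for which a difference could not be tested.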

Other observations

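Several more genes, picked with their values in view, had all NTEV libraries below all PBS libraries. Samd9l, an interferon-inducible antiviral and growth-restraining protein, stood at 16.1, 12.5 and 16.1 CPM with ATEV, 7.07, 5.57 and 5.72 CPM with NTEV and 12.8, 15.4 and 20.3 CPM with PBS. ATEV exceeded NTEV by 1.28 ± 0.20 on the log2 scale (edgeR adjusted p = 0.00464), and the log2 fold change of NTEV over PBS was -1.40 (adjusted p = 0.00443). Ocstamp, a membrane protein of osteoclast fusion, stood at 5.47, 6.31 and 6.84 CPM against 2.31, 0.841 and 2.59 CPM (1.70 ± 0.32, adjusted p = 0.0175), with 6.27, 8.36 and 7.67 CPM in PBS. Arg1, the arginine-degrading enzyme of alternatively activated macrophages, stood at 8.82, 19.6 and 23.7 CPM against 2.17, 0.240 and 0.895 CPM (3.93 ± 0.80, adjusted p = 0.0337), while its PBS libraries ranged from 4.27 to 23.8 CPM. Samd9l was called in all 6 fits that left out 1 ATEV or NTEV library. The call of Ocstamp was lost without ATEV replicate 2 or 3 (adjusted p up to 0.0825), and that of Arg1 without ATEV replicate 2 or 3 or NTEV replicate 2 or 3 (up to 0.181).

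Receptors and other surface or cytoskeletal genes outside the lists, also chosen after their values were seen, were higher with ATEV. Il12rb1, a receptor chain for interleukins 12 and 23, stood at 9.08, 9.03 and 7.16 CPM against 1.73, 1.84 and 2.78 CPM (2.0 ± 0.23, adjusted p = 4.15e-04), with PBS at 1.52 to 1.74 CPM. Axl, a receptor for the clearance of dead cells, stood at 2.15, 2.87 and 1.43 CPM against 0.138, 0.360 and 0.298 CPM (3.03 ± 0.44, adjusted p = 0.00329). Without its ATEV libraries Axl would not have passed the filter on low counts, so its call is a description. Evl, a regulator of actin, stood at 6.37, 12.3 and 13 CPM against 1.90, 0.801 and 2.64 CPM (2.58 ± 0.42, adjusted p = 0.00710). Lair1, an inhibitory collagen receptor, stood at 35.4, 71.5 and 109 CPM against 31.1, 17.2 and 24.7 CPM (1.56 ± 0.32, adjusted p = 0.0314), with ATEV replicate 1 close to NTEV replicate 1, and its call was lost without ATEV replicate 2 or 3 or NTEV replicate 2 or 3 (adjusted p up to 0.153). The predicted gene Gm8995, left out by the naming rule, had the joint smallest adjusted p of the comparison (4.33e-07), at 137, 137 and 149 CPM against 34.0, 37.4 and 31.0 CPM, a log2 fold change of 2.05 ± 0.11.

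Some genes that separated vesicle-treated cells from PBS had ATEV and NTEV libraries that overlapped. Fas, a death receptor, stood at 9.47, 12.6 and 12.9 CPM with ATEV, 7.45, 15.1 and 11.4 CPM with NTEV and 1.55 to 3.16 CPM with PBS, and the log2 fold change of ATEV over NTEV was 0.04 (95% interval -0.55 to 0.64). Saa3, an acute-phase protein, stood at 48.6, 77.9 and 190 CPM, 149, 149 and 74.8 CPM and 13.1 to 31.0 CPM (-0.24, -1.21 to 0.73). Cd24a, a surface glycoprotein, was low with both vesicles, at 9.81, 11.3 and 8.06 CPM and 16.2, 7.65 and 12.8 CPM against 46.5 to 78.5 CPM with PBS (-0.33, -0.91 to 0.25). Intervals of this width do not show that the vesicles acted alike on these genes.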
